A study of Mus musculus with 6 samples.

Results

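The genes described are those for proteins of the nuclear pore and for the receptors that carry cargo through it. They were taken as all probes whose platform gene symbol starts with Nup and a digit (pore proteins, or nucleoporins) or with Ipo, Kpna, Kpnb, Tnpo or Xpo (importins, transportins and exportins, the transport receptors). The rule found 77 of the 45281 probes on the array, for 42 genes, of which 38 probes and 20 genes belong to the pore and 39 probes and 22 genes to the receptors. RNA of 6 C57 BL6 mice was hybridised to Illumina bead arrays, with 1 array for each mouse. The WT vehicle group holds 3 mice that are wild type for N-Me, an enhancer bound by NOTCH1 that acts on the growth regulator Myc. They were injected intraperitoneally with corn oil alone. The KO tamoxifen group holds 3 knock-out mice for this enhancer, injected in the same way with tamoxifen at 3 mg/kg in corn oil, and the animals of both groups were processed 40 h after treatment. Genotype and drug differ at once between the groups, so the effects of deletion and drug cannot be told apart. The labels give no age, no tissue and no name for the recombinase that tamoxifen activates.

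The nuclear pore complex is a large ring of nucleoporins set in the nuclear envelope. A structural scaffold of outer and inner rings anchors nucleoporins rich in phenylalanine-glycine repeats, which fill the channel and bar the way to large molecules. Transport receptors bind these repeats and pass with their cargo. Importins take proteins into the nucleus and exportins take proteins and RNAs out, in a direction set by the small GTPase RAN. In growing cells this traffic includes ribosomal proteins going in and new ribosomal subunits going out.

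To show the stretches of DNA in front of members whose transcript fell, promoter windows with the sequence CACGTG, the E-box that MYC with its partner MAX can bind, are printed here. Each runs from 250 bases before to 50 bases after an annotated transcript start, taken from the RefSeq promoter table of build GRCm38.p6, 5′ to 3′ on the gene's strand, with the E-box in capitals. Nup54 lies at chr5:92435150-92435449 on the minus strand, Ipo7 at chr7:110018065-110018364 on the plus strand, Xpot at chr10:121626283-121626582 on the minus strand and Ipo4 at chr14:55635635-55635934 on the minus strand.
Nup54: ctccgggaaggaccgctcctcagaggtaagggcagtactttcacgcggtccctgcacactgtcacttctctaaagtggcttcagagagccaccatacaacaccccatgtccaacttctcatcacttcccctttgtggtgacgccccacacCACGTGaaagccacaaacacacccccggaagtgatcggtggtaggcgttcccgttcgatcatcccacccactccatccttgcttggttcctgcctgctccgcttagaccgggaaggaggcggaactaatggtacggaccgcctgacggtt
Ipo7: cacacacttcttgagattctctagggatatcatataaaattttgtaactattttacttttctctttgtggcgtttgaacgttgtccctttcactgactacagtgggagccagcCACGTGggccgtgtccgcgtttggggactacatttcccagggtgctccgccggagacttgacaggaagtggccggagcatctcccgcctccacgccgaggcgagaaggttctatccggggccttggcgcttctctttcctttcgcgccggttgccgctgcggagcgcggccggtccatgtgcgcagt
Xpot: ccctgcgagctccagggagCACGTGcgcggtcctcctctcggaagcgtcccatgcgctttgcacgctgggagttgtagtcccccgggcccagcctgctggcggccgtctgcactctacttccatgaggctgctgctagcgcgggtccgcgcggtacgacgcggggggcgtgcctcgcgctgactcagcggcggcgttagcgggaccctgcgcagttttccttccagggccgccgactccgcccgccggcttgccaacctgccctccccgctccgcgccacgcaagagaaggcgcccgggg
Ipo4: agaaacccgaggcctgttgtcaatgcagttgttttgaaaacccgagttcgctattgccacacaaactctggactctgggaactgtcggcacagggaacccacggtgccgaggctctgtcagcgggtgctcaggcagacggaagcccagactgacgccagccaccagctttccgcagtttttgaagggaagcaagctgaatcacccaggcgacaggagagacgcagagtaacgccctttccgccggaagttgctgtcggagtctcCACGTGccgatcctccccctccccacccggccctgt
Counted from the transcript start, the first base of the E-box lies at -100 in Nup54, at -137 in Ipo7, at -231 in Xpot and at 15 in Ipo4. CACGTG reads the same on both strands, and no other motif was searched in the windows of the members; TATAAA was counted over all windows of the table to check their orientation. A window was found for 27 of the 34 members tested below, and 6 of these (22.2%) held the motif, 2 of 14 pore genes and 4 of 13 receptor genes. Over all genes of the table the share was 8.09% of 27025, over all tested genes 11.9% of 8298, and over tested genes called lower in KO 14.1% of 1437. Of the members called lower with a window, 4 of 10 held it, the 4 printed above. Of these, Ipo7 kept its call under every alternative run for single genes, and Nup54, Xpot and Ipo4 lost theirs under some, as given below. The windows of Nup107, which fell most, and of Nup205, Kpnb1, Xpo5, Ipo5 and Tnpo3 lacked the motif. Nup43 and Xpo4, which also fell, had no window. The other members with the motif were Nup93, with a log2 fold change of -0.08, and Tnpo2, with a log2 fold change of -0.03. The matching window of Tnpo2 holds 2 copies, and in both genes a further window holds none. A gene was counted if any of its windows held the motif, and 6 members had several windows. A match of letters is a description of the window, and binding was not measured.

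The arrays were alike in depth, with 18215 to 19486 probes detected at a detection p under 0.05 and a median raw signal of 121.8 to 132.4. Myc itself read 8.95, 8.75 and 9.04 on the WT arrays and 7.42, 6.95 and 7.11 on the KO arrays, in normalized log2 signal, without overlap (log2 fold change -1.75 ± 0.16, SE; adjusted p = 0.000406 by limma). The array does not measure the deletion of the enhancer. Of 10209 genes tested over the whole array, 17.1% were called lower and 19.7% higher in KO (limma, adjusted p under 0.05), 36.9% in all, and without WT replicate 3 the total of called genes fell from 3763 to 2486. The labels name no tissue, and the T cell markers Cd3e, Cd3g and Thy1 were bright on every array and not called. Cd4 was dim, at a mean of 6.15 in WT and 6.21 in KO, and Cd8a was not detected on enough arrays to be tested. Of 8 tested T-lineage markers, 3 fell, the genes of immature T cells Rag1, Ptcra and Dntt, and the summed log2 signal of the list was 15.07 to 15.22 in WT and 15.16 to 15.23 in KO. Markers of other cells rose in KO. All 4 tested macrophage and dendritic markers were called higher, with a summed log2 signal of 12.02 to 12.50 in WT and 13.11 to 13.65 in KO. Of the erythroid markers 3 of 5 were called higher (15.80 to 15.92 in WT and 15.99 to 16.10 in KO), and of the stromal and endothelial markers 3 of 5 (10.44 to 10.69 and 11.11 to 11.38). None of 6 neutrophil markers was called by limma, nor was any at an unadjusted p under 0.05, with a summed signal of 12.00 to 12.54 in WT and 11.68 to 13.77 in KO, the lowest of these in KO replicate 1. Of 2 tested B-lineage markers 0 were called by limma, also at an unadjusted p under 0.05. Like Cd8a, probes of Pax5, Ms4a1, Itgax, Epcam and Bub1 were not detected on enough arrays to be tested. Of 7 proliferation genes only Rrm2 was called, as higher. In RNA from mixed cells, fewer cells of a type and less RNA per cell cannot be told apart. The part of these marker shifts in the results below was not tested.

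Of the 42 genes, 34 had at least 1 probe detected on at least 3 arrays and were tested, 16 of the pore and 18 of the receptors. The other 8, namely Nup153, Nup188, Nup62cl and Nup210l of the pore and Xpo1, Tnpo1, Kpna4 and Kpna7 of the receptors, were represented by 13 probes that were not well above background on any array. Their normalized log2 signals were 4.46 to 5.16, whereas the dimmest detected reading of a tested member was 5.27. Xpo1, the main export receptor for proteins with a leucine-rich signal, was covered by 2 such probes and Tnpo1 by 3, so the arrays give no reading of either gene. All 34 tested genes were detected on all 3 arrays of both groups with the probe used for them.

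Most of the tested pore and receptor genes had a lower mean in KO, 27 of 34, and a smaller part passed the test. Of 34, 12 fell and 1 rose, beside the 36.9% of all genes called in either direction. Among pore genes 4 of 16 fell (25%) and 0 rose by limma (6 lower and 0 higher at an unadjusted p under 0.05). Among receptor genes 8 of 18 fell (44.4%) and 1 rose (5.56%), beside the 17.1% lower and 19.7% higher of all genes. The KO arrays all read below the WT arrays for 10 of 16 pore genes and 10 of 18 receptor genes (24.4% of all genes), and all above them for 0 pore genes and 3 receptor genes (26.1% of all genes). The median log2 fold change was -0.28 for pore genes and -0.34 for receptor genes, beside 0.0011 for all genes. The values of the classes overlapped, from -0.97 to 0.15 for pore genes and from -0.75 to 0.58 for receptor genes, and the middle part of the receptor values was wider (quartiles -0.59 and -0.0042) than that of the pore values (-0.44 and -0.14). The difference between the classes was not tested, since genes are not replicates. The receptor count depends on single arrays, as that of all genes does, and on the probe. It was 5 of 18 called without WT replicate 3 and 6 without WT replicate 1, against 9 with all arrays. Over all genes the calls dropped too, from 3763 to 2486 without WT replicate 3 and to 2516 without WT replicate 1. When the probes of each gene were averaged the order of the classes turned. The pore then had a median of -0.31 and 6 of 16 genes called lower, and the receptors a median of -0.18 and 6 of 18. Of all genes 18.1% were called lower under this setting. No member passed both the test and a minimum of a 2-fold change, as 822 of all genes did.

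**Figure D1:**
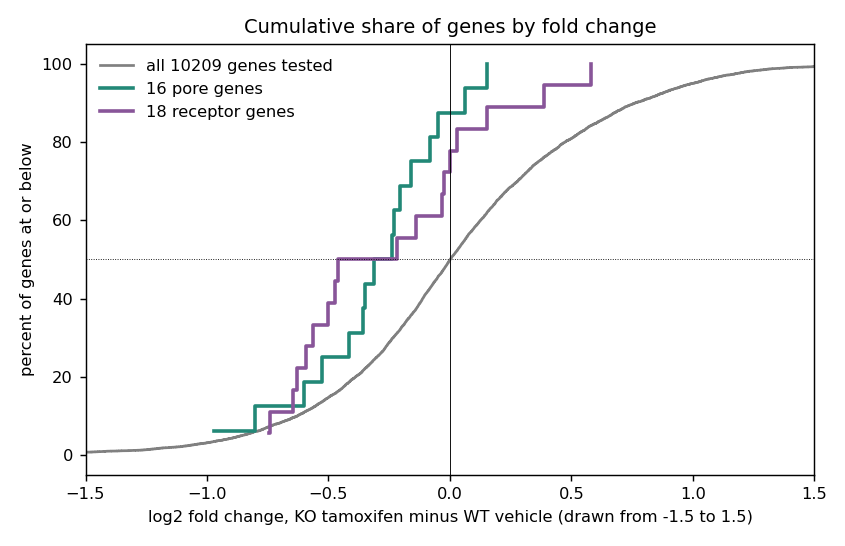
Cumulative percentage of genes (vertical axis) at or below each log2 fold change of KO tamoxifen minus WT vehicle (horizontal axis) for 10209 tested genes, 16 pore genes and 18 receptor genes. The curves of both classes lie left of the curve of all genes over most of the range and cross the dotted 50% line near -0.28 and -0.34.

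The shift was present on each KO array. The median over the pore genes of the deviation from the WT mean was -0.33, -0.24 and -0.26 on the 3 KO arrays and 0.043, -0.0029 and 0.00014 on the WT arrays. Over the receptor genes it was -0.29, -0.26 and -0.23 on the KO arrays and -0.013, -0.056 and 0.041 on the WT arrays. The WT deviations are taken from the mean of the same WT arrays, so for each gene they balance out. All KO arrays share this baseline. Over all genes tested the median deviation on the KO arrays was 0.016, -0.0031 and 0.0033. Each KO array read below all WT arrays for 12 or 13 of the 16 pore genes and for 14, 11 and 10 of the 18 receptor genes, beside 3706, 3843 and 4010 of all 10209 genes on KO replicates 1, 2 and 3.

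The outer ring of the pore is built of the Y complex, and 6 of its genes with Nup symbols were tested. Nup107, a stem subunit of the Y complex, read 9.71, 9.42 and 9.59 in WT and 9.14, 8.46 and 8.21 in KO. All KO values lay below the WT values, with KO replicate 1 nearest to them. This was the largest fall of the 34 tested members, 1.96-fold lower in KO (log2 fold change -0.97 ± 0.23, SE; adjusted p = 0.0114). Nup43, another subunit of the same complex, read 11.22, 11.18 and 10.98 in WT and 10.43, 10.59 and 10.56 in KO. Its groups did not overlap, and it was 1.52-fold lower (-0.60 ± 0.13; adjusted p = 0.00737). Nup37 was also below WT on every KO array, at 7.40, 7.30 and 7.25 in WT and 6.81, 6.73 and 7.16 in KO, but did not pass (-0.42 ± 0.15; adjusted p = 0.0522). Nup37 was called under 5 of the 17 alternatives run for single genes. These were 2 stricter detection filters, averaged probes, array weights, and leaving out KO replicate 3 (-0.55, adjusted p = 0.0254 by limma). The remaining Y complex genes of the rule were closer to 0 and not called. Nup85 was at -0.21, Nup133 at -0.16 and Nup160 at 0.15 in log2 fold change, so members of a single complex ranged from -0.97 to 0.15. Its subunits with other symbols, Seh1l at -0.32 and Sec13 at -0.10, were not called either. For single genes the exact permutation test of 3 against 3 cannot go below 0.1, 2-sided, and it gave 0.1 for Nup107, Nup43 and each other member named below as not overlapping.

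The inner ring links the outer rings to the channel. Nup205, one of its large scaffold proteins, read 12.52, 12.44 and 12.62 in WT and 12.07, 12.06 and 11.88 in KO. Every KO value lay below the lowest WT value, and Nup205 was 1.44-fold lower (log2 fold change -0.53 ± 0.12, SE; adjusted p = 0.0115). Its ring partners Nup155 at -0.24 and Nup93 at -0.08 were not called. In the channel, Nup54, which forms the central transport gate with Nup62, read 7.41, 6.95 and 7.46 in WT and 6.75, 5.86 and 6.80 in KO. The groups did not overlap, but KO replicate 2 was much lower than the other KO arrays. Nup54 was 1.74-fold lower (-0.80 ± 0.26; adjusted p = 0.0401), and it lost its call without KO replicate 2 (-0.50; adjusted p = 0.0789), without WT replicate 1 (0.118), without WT replicate 3 (0.128) and with no filter on dim probes (0.0944). Its fold change was -0.42 without background correction. Nup62, the core protein of the channel, read 11.79, 11.96 and 11.81 in WT and 11.29, 11.59 and 11.74 in KO, without overlap, and was not called (-0.31 ± 0.15; adjusted p = 0.129).

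The other pore genes did not pass the test. Nup210, a protein of the pore membrane, was at -0.36 ± 0.17 (SE, log2 fold change) and overlapped between groups, with KO replicate 1 at 12.70 inside the WT range of 12.60 to 12.87. It was called when that array was left out (-0.52, adjusted p = 0.0234 by limma), and also under median scaling of the arrays and with array weights. Nup98, whose transcript also encodes the Y complex protein Nup96 and whose own product binds mRNA export factors, was at -0.35 ± 0.15 without overlap (adjusted p = 0.0951). On the cytoplasmic side Nup88 was at -0.23 and its partner Nup214 at 0.06, and Nup50 of the nuclear basket was at -0.05. The sign of Nup214 turned under median scaling of the arrays (-0.025) and without KO replicate 1 (-0.015).

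**Figure D2:**
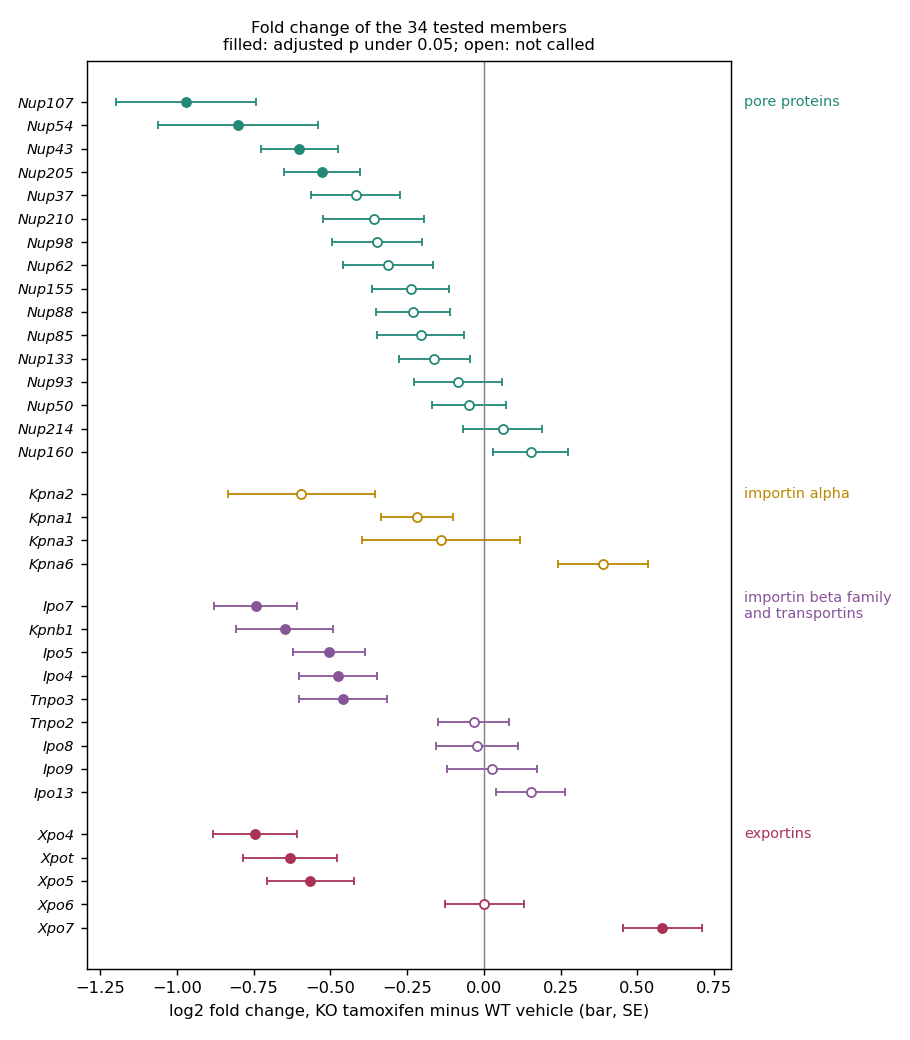
Log2 fold change of KO tamoxifen minus WT vehicle with its SE (horizontal axis) for each of the 34 tested members, ordered by role; filled points passed an adjusted p under 0.05 and open points did not. Pore genes run from Nup107 at -0.97 to Nup160 at 0.15, importin alpha genes are all open, and Xpo7 at 0.58 is the only filled point right of 0.

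The import receptors are the importin beta family, which bind the pore, and the importin alpha adaptors, which link cargo to importin beta. Of 9 tested genes of the beta family and transportins 5 fell and 0 rose, beside 17.1% lower and 19.7% higher of all genes, whereas of 4 importin alpha genes 0 were called by limma (1 lower and 1 higher at an unadjusted p under 0.05), and the difference between these counts was not tested. Kpnb1 encodes importin beta, which carries proteins with the classical nuclear localization signal together with an importin alpha. It read 10.58, 10.34 and 10.46 in WT and 9.54, 10.06 and 9.84 in KO. The groups did not overlap, and Kpnb1 was 1.57-fold lower (log2 fold change -0.65 ± 0.16, SE; adjusted p = 0.0136), but not called without WT replicate 1 (adjusted p = 0.0540). Ipo7, an import receptor of ribosomal proteins and histone H1, read 9.03, 8.82 and 8.99 in WT and 8.06, 8.38 and 8.17 in KO. The gap between the groups was wider than the range within either, and Ipo7 was 1.67-fold lower (-0.74 ± 0.14; adjusted p = 0.00404). Ipo5, which imports ribosomal proteins and core histones, read 11.38, 11.32 and 11.48 in WT and 10.92, 10.95 and 10.82 in KO. It was 1.42-fold lower without overlap (-0.50 ± 0.12; adjusted p = 0.0115).

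Ipo4, another importer of histones and ribosomal proteins, and Tnpo3, which imports serine- and arginine-rich splicing factors, fell by less and less firmly. Ipo4 was at -0.48 ± 0.13 (SE, log2 fold change; adjusted p = 0.0196) and Tnpo3 at -0.46 ± 0.14 (adjusted p = 0.0351), both without overlap. Both lost their call with any array left out except KO replicate 1, at an adjusted p of up to 0.0647 for Ipo4 and 0.105 for Tnpo3. The transportin Tnpo2 at -0.03, Ipo8 at -0.02 and Ipo9 at 0.03 were near 0, with KO values inside or around the WT range. Ipo13, which carries cargo in both directions, read 9.95, 9.84 and 9.86 in WT and 10.06, 9.99 and 10.06 in KO, higher without overlap but not called (0.15 ± 0.11; adjusted p = 0.324). The importin alpha genes differed in sign. Kpna2 read 8.96, 8.70 and 8.73 in WT and 7.60, 8.52 and 8.49 in KO, with KO replicate 1 far below the other KO arrays. It was below WT on every KO array but not called (-0.59 ± 0.24; adjusted p = 0.0825), and its log2 fold change was -0.29 without KO replicate 1. Kpna3 was also lowest in KO replicate 1, at 7.81 against 8.93 and 8.44, and its value turned from -0.14 to 0.15 without it. Kpna1 was at -0.22 and Kpna6 at 0.39 ± 0.15 (adjusted p = 0.0662), and both were without overlap and not called. Kpna6 was called without KO replicate 2 (0.52; adjusted p = 0.0304) and under median scaling of the arrays (0.42; adjusted p = 0.0446). It is a dim probe, and its log2 fold change was 0.21 with normexp (adjusted p = 0.155) and 0.15 without background correction (adjusted p = 0.213).

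Of 5 tested exportins 3 fell, 1 rose and 1 was not called, beside 17.1% lower and 19.7% higher of all genes. Xpo4, an exportin of the translation factor eIF5A, read 7.003, 7.06 and 7.37 in WT and 6.42, 6.33 and 6.45 in KO. The KO arrays were close together and all below WT, 1.68-fold lower (log2 fold change -0.75 ± 0.14, SE; adjusted p = 0.00421), though the size was -0.39 without background correction. Xpot, the exporter of tRNA, read 10.98, 11.04 and 11.26 in WT and 10.68, 10.49 and 10.22 in KO. It was 1.55-fold lower without overlap (-0.63 ± 0.15; adjusted p = 0.0133), and was not called without WT replicate 3 (adjusted p = 0.0550). Xpo5, the exporter of microRNA precursors, read 9.19, 9.23 and 9.45 in WT and 8.52, 8.85 and 8.80 in KO. It too was below WT on each KO array, 1.48-fold lower (-0.56 ± 0.14; adjusted p = 0.0157), and was not called without WT replicate 3 (adjusted p = 0.0626). Xpo6, the exporter of actin with profilin, was at 0.0019 ± 0.13 and overlapped.

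Xpo7 was the member that rose. It encodes an exportin with a broad range of cargo, known in mouse erythroblasts for a part in nuclear maturation. Xpo7 read 8.62, 8.92 and 8.77 in WT and 9.27, 9.35 and 9.44 in KO. Every KO value lay above the highest WT value, and Xpo7 was 1.496-fold higher (log2 fold change 0.58 ± 0.13, SE; adjusted p = 0.00926). It was called under all 17 alternatives run for single genes, at 0.44 to 0.66. The erythroid markers Gata1 (1.37 ± 0.19), Epor (1.03 ± 0.15) and Alas2 (0.78 ± 0.22) were also called higher in KO, while Hba-a1 and Slc4a1 were not called, and the part of the erythroid shift in the rise of Xpo7 was not tested.

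**Figure D3:**
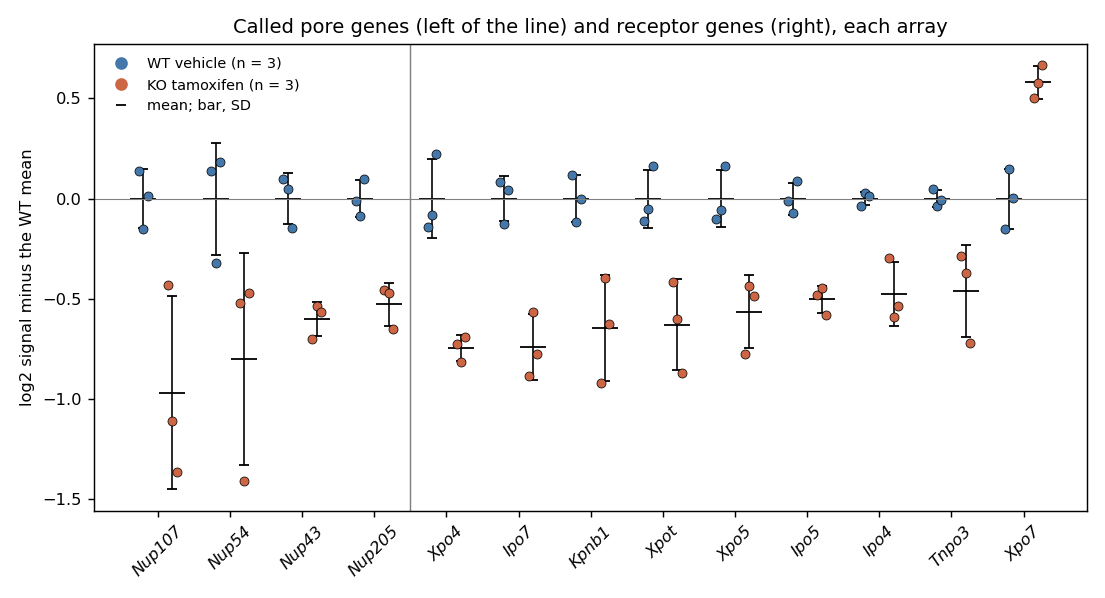
Log2 signal minus the WT mean (vertical axis) of each array for the 4 called pore genes (left of the line) and the 9 called receptor genes (right), with the mean and SD of each group of 3. In all 13 genes the KO points stand apart from the WT points; Nup107 and Nup54 show the widest KO spread and Xpo7 alone lies above 0.

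Several members carry more than 1 kept probe, which allowed a check of the gene values. The 34 genes had 52 kept probes, and tested singly among all 19082 kept probes 16 of the member probes were lower and 1 higher in KO, beside 16.5% lower and 15.7% higher of all probes. Of the 18 further probes, 14 had the same sign as the brightest probe of their gene and 0 were called in the other direction. The second probes of Xpo4 (log2 fold change -0.79 ± 0.22, SE) and Ipo5 (-0.96 ± 0.21) also fell. Nup88, which was not called by its brightest probe, had 3 further probes that were lower by more, at -0.55, -0.73 and -0.34, the second of them called. The mean of its probes passed the test (-0.46; adjusted p = 0.0253). A further probe of Nup155 fell as well (-0.45 ± 0.13), beside -0.24 for both other kept probes.

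For other members the probes differed. Further probes of Nup133 were at -0.24 and, for a dim probe, 0.36 beside -0.16, and the mean of its probes was at -0.014. Those of Nup50 were at -0.32 and 0.08 beside -0.05. The probes of both genes were not called. The second probe of Xpot was at -0.05 ± 0.13 (SE) beside -0.63, and the mean of the probes was not called (-0.34; adjusted p = 0.0526). The second probe of Tnpo3, detected on 2 of 3 WT arrays, was at 0.18 beside -0.46, and the mean of the probes was at -0.14 (adjusted p = 0.409). For Xpo7 the second probe was at 0.76 ± 0.26 and just missed the threshold (adjusted p over probes = 0.0525), and a further, dim probe was at -0.03. The rise of Xpo7 thus rests on the brighter probes, and the falls of Xpot and Tnpo3 on 1 of 2 kept probes each. Nup107, Nup54, Nup43, Nup205, Ipo7, Kpnb1, Xpo5 and Ipo4 had 1 kept probe each, so their falls could not be checked in this way. The files do not say which transcripts or exons the probes of a gene match.

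**Figure D4:**
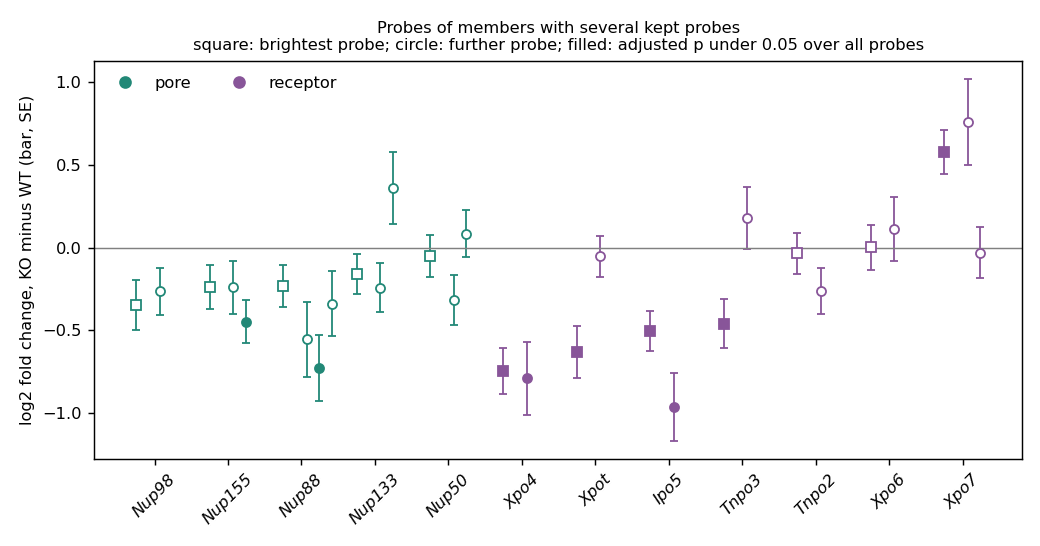
Log2 fold change with its SE (vertical axis) of every kept probe of the 12 members with several kept probes; squares are the brightest probe, circles further probes, and filled symbols passed an adjusted p under 0.05 over all probes. Probes of Xpo4, Ipo5 and Nup88 lie on the same side of 0, while Nup133, Nup50, Tnpo3 and Xpo7 have probes on both sides.

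The members are spread over the genome. Of those tested, Nup155 and Nup50 lie on chromosome 15, as Myc does, and neither was called. Of the 13 called members, Ipo4, Ipo5, Xpo4 and Xpo7 lie on chromosome 14 and Nup107, Nup43 and Xpot on chromosome 10. On chromosome 14 this includes both falls and the rise. The tested members Kpna3 on chromosome 14 and Nup37 on chromosome 10 were not called. The share of all tested genes on each chromosome was not counted, so no grouping is read from these places.

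Other genes of nuclear transport, whose symbols fall outside the rule, were counted in lists, whose counts stand beside the 17.1% lower and 19.7% higher of all genes. Of 11 tested further pore proteins 3 fell and 0 rose, at a median log2 fold change of -0.29, and all 11 values were negative, as were 5097 of 10209 over all genes. The pore membrane protein Ndc1 read 9.81, 10.10 and 9.73 in WT and 9.22, 9.59 and 9.08 in KO (-0.58 ± 0.17, SE; adjusted p = 0.0270). Nupl2, an older symbol of a cytoplasmic-side nucleoporin, was at -0.46 ± 0.14 and the mRNA export factor Rae1, a partner of Nup98, at -0.44 ± 0.12, both without overlap. Of 13 genes of the RAN cycle and other transport factors 5 fell and 1 rose, at a median of -0.23. Rcc1, the exchange factor that loads RAN with GTP in the nucleus, read 9.95, 9.88 and 9.87 in WT and 9.14, 8.97 and 9.28 in KO (-0.77 ± 0.13; adjusted p = 0.00284). Nmd3, the adaptor through which large ribosomal subunits are exported, was at -1.01 ± 0.16, and Heatr3 at -0.77 ± 0.16. Ran itself, named for its central role and not by the rule for naming genes, read 9.65, 9.43 and 9.31 in WT and 9.06, 8.67 and 8.80 in KO (-0.62 ± 0.15; adjusted p = 0.0129). Cse1l, the exportin that returns importin alpha to the cytoplasm and whose symbol falls outside the rule, was below WT on every KO array but not called (-0.23; adjusted p = 0.202).

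The mRNA export genes and the nuclear lamina were counted against the same 17.1% lower and 19.7% higher of all genes. Of 13 mRNA export genes 4 fell and 0 rose, at a median log2 fold change of -0.28. Ddx19b, a helicase that acts at the cytoplasmic side of the pore, read 9.51, 8.996 and 9.45 in WT and 8.51, 8.86 and 8.09 in KO (-0.83 ± 0.22, SE; adjusted p = 0.0178). The mRNA export receptor Nxf1, which uses no RAN and lies outside the importin family, was at 0.04 and not called. Of 9 lamina genes 1 fell and 1 rose, at a median of -0.04. Lmnb2, a B-type lamin, was at -1.08 ± 0.14 (adjusted p = 0.00121), and Lmna, the A-type lamin, at 0.97 ± 0.15 (adjusted p = 0.00208), each without overlap. The median of the lamina genes was thus nearer to that of all genes than the medians of the pore and receptor genes were.

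**Figure D5:**
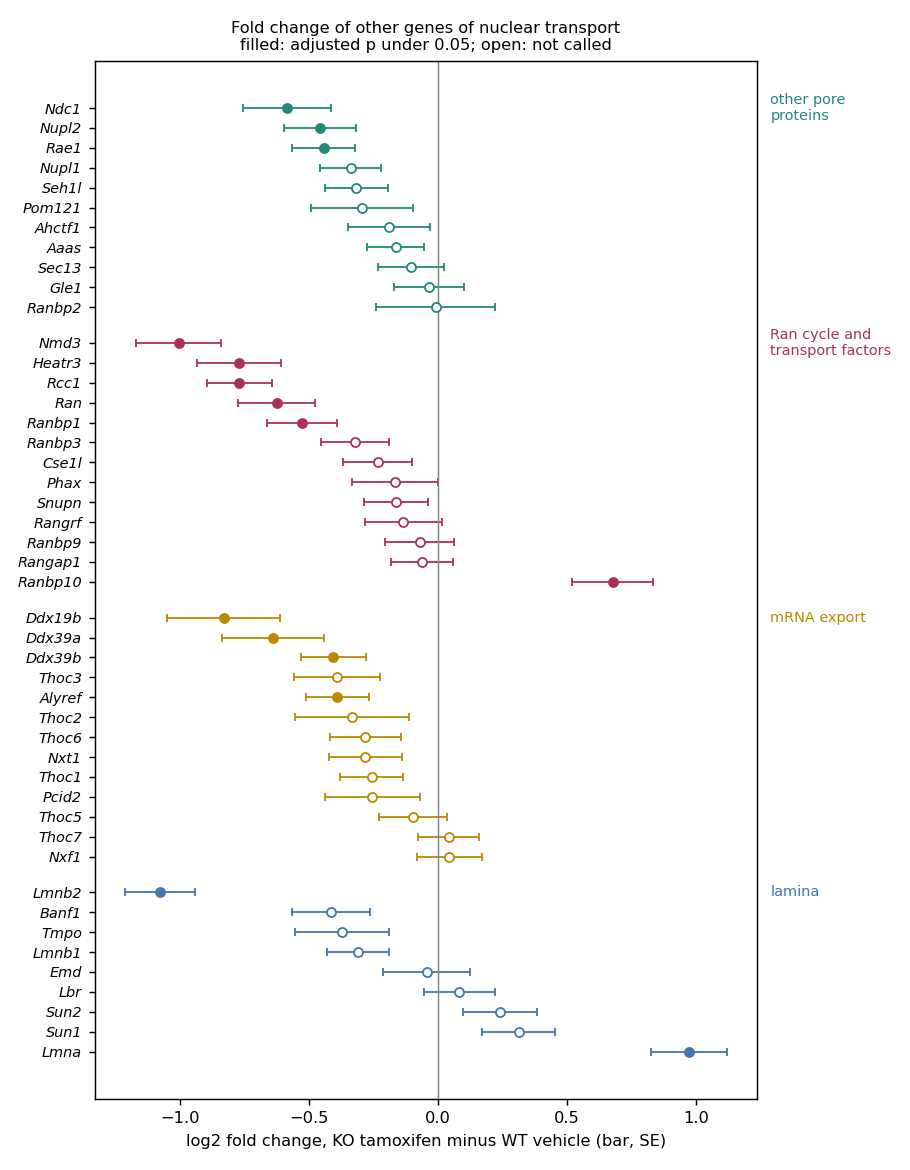
Log2 fold change of KO tamoxifen minus WT vehicle with its SE (horizontal axis) for other genes of nuclear transport and the lamina, by list; filled points passed an adjusted p under 0.05. All 11 further pore proteins lie left of 0, Ranbp10 at 0.68 is the only transport factor called higher, and the lamins Lmnb2 and Lmna lie at opposite ends.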

How the data were processed

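Groups and replicate numbers came from the sample titles. Per the file headers, the deposited raw table gives each probe an intensity and a detection p-value on each array. No scanner setting is stated there or in the labels. Log2 values that the authors also deposited match quantile-normalized log2 raw signals within 5e-05. All sample columns were used. In limma 3.58.1 (R 4.3.3), neqc inferred the negative controls from the detection p-values, subtracted background, added 16, applied quantile normalization and took log2, so folds of dim genes depend on these steps. Kept probes had a detection p under 0.05 on 3 or more of the 6 arrays (19082 probes), and the brightest kept probe on average stood for its gene (10209 genes). Of all probes the platform annotation names 34885 by 1 symbol and 18 by several, and leaves 10378 unnamed; a RefSeq table of GRCm38.p6 held 34807 of them by Entrez number and gave symbols and chromosomes. Genes were tested with lmFit and eBayes, 2-sided, with Benjamini-Hochberg adjustment over all of them. The fit was also run on simulated data with known log2 changes. It recovered 5.97% of 67 genes changed by 0.5, 68.7% of 67 changed by 1 and 92.4% of 66 changed by 2. Most changes of 0.5 were thus not recovered. The labels call the arrays biological replicates, and 3 arrays a group limit the precision.

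Every tested member could be named with its fold change. Full values were due for up to 7 called pore genes and 7 called receptor genes with the largest change, for Myc, and for up to 4 such genes of each further list; array values of other members were added after they were seen. The members and lists were chosen with earlier results of these data known. Promoter windows were matched by gene number, and protein sequences were not analysed here. Figures were drawn with matplotlib 3.10.9 and pandas 2.3.3. The alternatives were other background corrections and scalings, the deposited log2 table, other filters and ways to combine probes, other variance models, a replicate block, a 2-fold minimum and each array left out.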

Additional observations from a re-analysis of the deposited data

How the results depend on the processing

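Of the 13 called members, 7 kept their call under all 17 alternatives run for single genes, namely Nup107, Nup43, Nup205, Xpo4, Ipo7, Ipo5 and Xpo7; the calls of Nup54, Kpnb1, Xpot, Xpo5, Ipo4 and Tnpo3 were lost 19 times in all, as given with each gene. Of 21 members not called, Nup37, Nup210, Nup88 and Kpna6 were called under some alternative, 11 times in all. With a 2-fold minimum 0 pore and 0 receptor genes and 822 genes over the array were called. With single arrays left out, 2486 to 3929 genes were called over the array, 3 to 5 of the pore and 5 to 9 of the receptors, and the median log2 fold changes were -0.32 to -0.23 for pore genes and -0.41 to -0.25 for receptor genes. The pore median was -0.23 and the receptor median -0.29 both without background correction and with the deposited log2 values. Under median scaling, where the median of all genes was -0.05, they were -0.37 and -0.43. When probes of a gene were averaged, the receptor median was -0.18 with 6 of 18 genes lower. The pore median was then -0.31 with 6 of 16 lower, which turns the order of the classes, beside 18.1% lower of all genes. The medians also changed order, at -0.32 for both, without WT replicate 3. Both medians were negative under each alternative run.

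Members near 0 changed sign and were not called either way. Under median scaling Nup214 was at -0.025, Xpo6 at -0.13 and Ipo9 at -0.069. With array weights Kpna3 was at 0.018, Ipo8 at 0.044 and Xpo6 at -0.034. With single arrays left out, Nup214 ranged from -0.015 to 0.11, Kpna3 from -0.41 to 0.15, Ipo8 from -0.11 to 0.056, Xpo6 from -0.061 to 0.072 and Ipo9 from -0.074 to 0.14. The causes were not tested.

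Groups share replicate numbers, but same-numbered arrays did not deviate together in every pair (r = 0.172, 0.119 and -0.0804 across genes), nor did every array correlate best with its own number. With the replicate block 3713 genes were called, 4 of the pore and 9 of the receptors. Signal near background limits what can be shown for the 8 untested genes.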
